A study of Homo sapiens with 12 samples.

Results

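The genes described here encode proteins of the mitochondrial ribosome and were chosen by name: MRPL or MRPS, a number and at most 1 letter, listed in both deposited tables and with a p-value in the expression table. The expression table has 78 such names, and 75 met the rule, among 19077 genes with a p-value. MRPL21 and MRPS18B had no m6A region of their own, and MRPS24 appeared only in a region label shared with 2 other gene labels, so these 3 were left out. The cells were HepG2, a long-established human hepatocellular line, and the groups were cells given toosendanin and cells labelled as control. Toosendanin is a triterpenoid of the tree Melia toosendan that is known for liver toxicity. Neither dose nor time is in the labels, and no vehicle is named for the control. RNA pulled down with an antibody against N6-methyladenosine (m6A) (IP) and the same RNA without that step (input) were sequenced in 12 libraries, 3 of each kind per condition. The m6A table gives counts summed over the libraries of a group, and the expression table gives fold changes and a mean over all the libraries compared, so no value of a single library is shown.

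Mitochondria keep their own ribosomes, which translate a few membrane subunits of the respiratory chain and of the ATP synthase from mitochondrial DNA. The rRNA of these ribosomes is made in the organelle, whereas every protein of the large and the small subunit is encoded in the nucleus, made in the cytosol and imported. Some of these proteins have bacterial homologues and others are particular to mitochondria. Hepatocytes are rich in mitochondria, and m6A is the most common internal mark of mRNA.

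Transcripts of mitochondrial ribosomal proteins had log2 fold changes between -0.66 and 0.52 after toosendanin, and most of them did not pass the test. Of the 75, 12 in the authors' deposited table were lower after toosendanin and 4 were higher, at an adjusted p under 0.05. That is 21.3% of the members, where the authors' deposited table called 31.4% of all tested genes (15.7% higher and 15.7% lower). All 75 lay in the upper 50% of mean normalized counts, where 43.4% of genes were called in the authors' deposited table. Lower members made up 16.0%, near the share over all genes, and higher members 5.33%, against 21.9% lower and 21.4% higher among genes in that upper 50% of the authors' deposited table. The median log2 fold change of the members was -0.04 and that of all genes with a p-value 0.01 in the authors' deposited table. The middle 50% of the members spanned -0.15 to 0.07 and that of genes in the upper 50% of means -0.23 to 0.25 in the same authors' deposited table. With a change of at least 2-fold 0 members were called, against 7.29% of genes in the authors' deposited DESeq2 table, and 20 members had an unadjusted p under 0.05, as did 33.8% of all genes with a p-value. These are normalized values, relative to the other transcripts. In such bulk samples fewer cells with a transcript and less of that transcript per cell cannot be told apart.

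**Figure D1:**
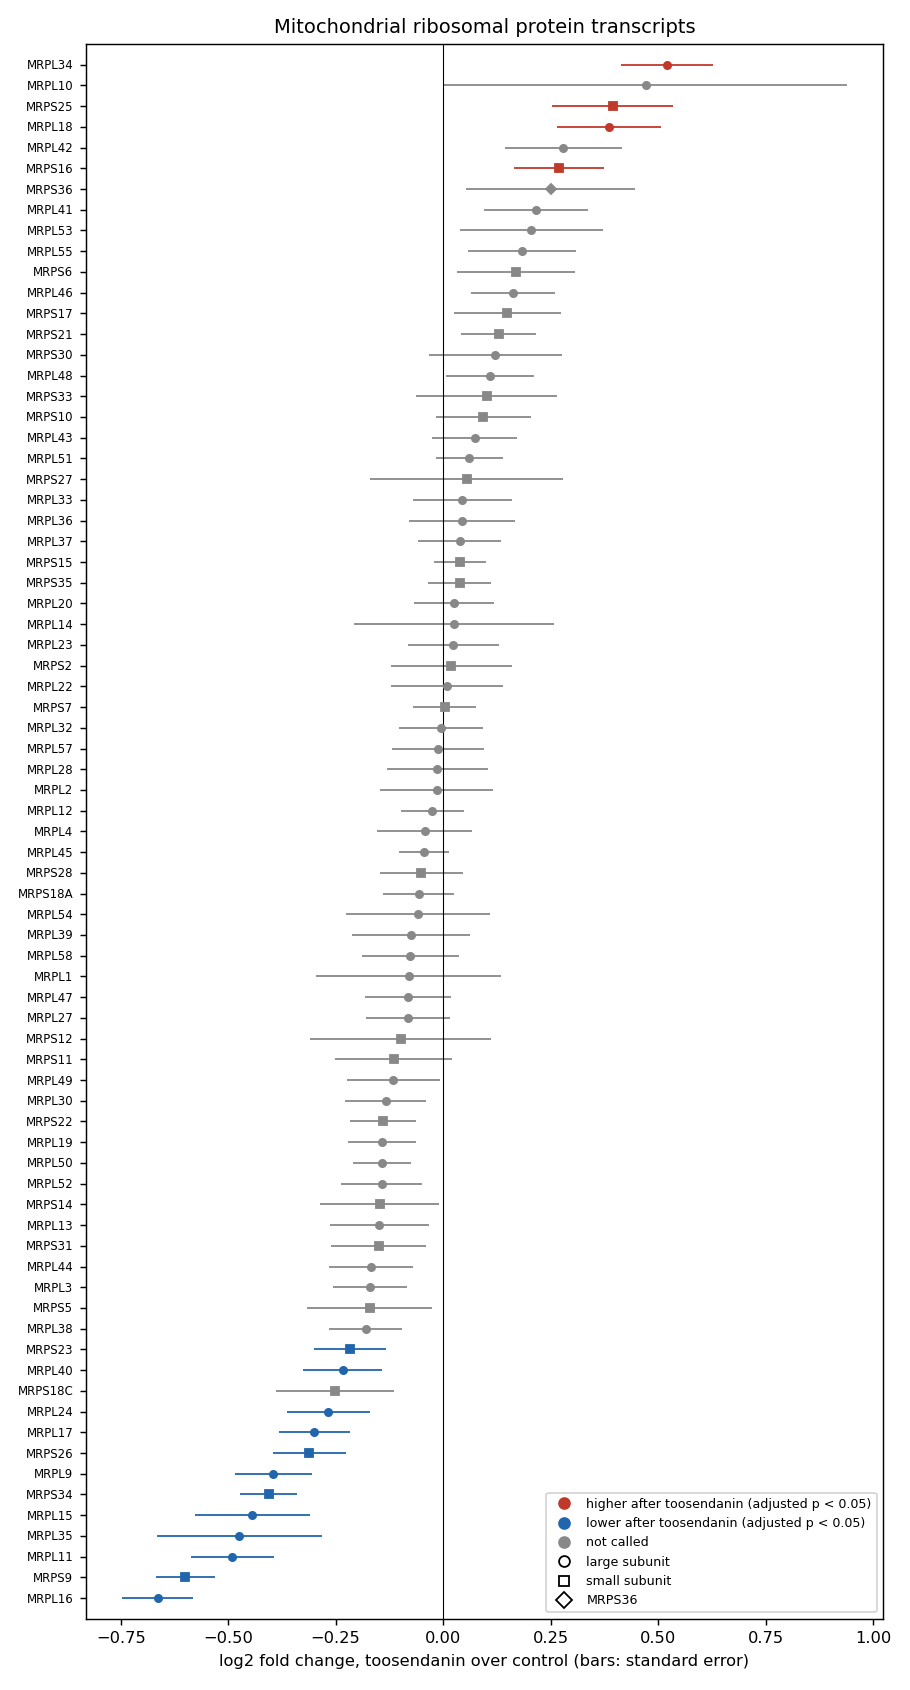
Log2 fold change (toosendanin over control) of the 75 transcripts in the authors' deposited table on the horizontal axis, with its standard error as a bar, 1 row per gene; red and blue mark the 4 higher and 12 lower genes called, and circles, squares and a diamond mark large subunit, small subunit and MRPS36. The values run from -0.66 for MRPL16 to 0.52 for MRPL34, and most bars reach or lie near 0.

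Among the transcripts that fell, the large subunit gave 8 and the small subunit 4, which is 16.0% and 16.7% of their members. MRPL16, a homologue of a bacterial protein beside the catalytic centre of the large subunit, fell by 0.66 ± 0.08 on the log2 scale in the authors' deposited table (± is the standard error here and below), which is 0.631 of its control level. Its summed input counts were 731 after toosendanin and 1585 in control, where the totals over all regions were 24253006 after toosendanin and 34131862 in control. MRPS9, a protein of the head of the small subunit, fell by 0.60 ± 0.07 in the authors' deposited table (adjusted DESeq2 p = 3.6e-17), with summed input counts of 2723 after toosendanin and 5614 in control. MRPL11, at the base of the stalk where translation factors bind, fell by 0.49 ± 0.10 in the authors' deposited table, and MRPS34, which is particular to mitochondria and stabilises the small subunit, fell by 0.41 ± 0.07. DESeq2's adjusted p in the authors' deposited table was 3.14e-14 for MRPL16, 3.55e-06 for MRPL11 and 1.13e-08 for MRPS34. None of the 4 was at or under 50% of its control level, and the lowest bound of a 95% interval among them was -0.83 on the log2 scale for MRPL16 in the authors' deposited table.

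Of the other 8 decreases, each had a higher adjusted p than those 4. MRPL9 fell by 0.40 ± 0.09, MRPL15 by 0.44 ± 0.13 and MRPL35 by 0.47 ± 0.19 in the authors' deposited table, and the last of these was near the threshold (adjusted DESeq2 p = 0.0454). MRPL17 and MRPL24, which in bacteria lie around the exit of the peptide tunnel, fell by 0.30 ± 0.08 and 0.27 ± 0.10 in the authors' deposited table. MRPS26 and MRPS23, small subunit proteins without a bacterial homologue, fell by 0.31 ± 0.09 and 0.22 ± 0.08 in the authors' deposited table. MRPL40, of the central protuberance of the large subunit, fell by 0.23 ± 0.09 in the authors' deposited table.

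Of the 4 transcripts that rose, each subunit gave 2, which is 4.0% of large and 8.33% of small subunit members. MRPL34, a short protein of the large subunit, stood at 0.52 ± 0.11 in the authors' deposited table (adjusted DESeq2 p = 1.06e-05), with summed input counts of 649 after toosendanin and 604 in control. It was 1.44 times its control level in the authors' deposited table. MRPL18, which holds the structural tRNA of the central protuberance, stood at 0.39 ± 0.12, MRPS25 at 0.39 ± 0.14 and MRPS16, a homologue of a bacterial small subunit protein, at 0.27 ± 0.10 in the authors' deposited table. Adjusted DESeq2 p-values for these 3, from the authors' deposited table, were 0.0066, 0.0189 and 0.0344.

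The starts of the 4 most strongly called decreases and of the 4 increases are shown because RefSeq promoters allow the genes of each direction to be set side by side. Each stretch runs from 100 bases before to 20 bases after the RefSeq gene start, 5′ to 3′ on the gene's strand, in build GRCh38.p14, and capitals mark matches to the motifs searched. Those that fell were:
MRPL16 (chr11:59810759-59810878, minus strand): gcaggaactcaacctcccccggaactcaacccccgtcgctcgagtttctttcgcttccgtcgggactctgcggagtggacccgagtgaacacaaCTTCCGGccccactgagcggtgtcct
MRPS9 (chr2:105037969-105038088, plus strand): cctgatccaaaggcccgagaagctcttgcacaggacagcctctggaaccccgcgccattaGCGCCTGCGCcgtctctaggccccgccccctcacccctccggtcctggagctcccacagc
MRPL11 (chr11:66438829-66438948, minus strand): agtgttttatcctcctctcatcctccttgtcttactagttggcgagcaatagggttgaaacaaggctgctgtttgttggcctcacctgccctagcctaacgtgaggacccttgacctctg
MRPS34 (chr16:1773115-1773234, minus strand): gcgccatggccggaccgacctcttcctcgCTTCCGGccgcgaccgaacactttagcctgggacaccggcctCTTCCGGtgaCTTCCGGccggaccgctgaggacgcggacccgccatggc

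Those that rose were:
MRPL34 (chr19:17292473-17292592, plus strand): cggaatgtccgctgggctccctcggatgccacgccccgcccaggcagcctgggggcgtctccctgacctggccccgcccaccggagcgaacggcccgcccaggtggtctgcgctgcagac
MRPL18 (chr6:159789712-159789831, plus strand): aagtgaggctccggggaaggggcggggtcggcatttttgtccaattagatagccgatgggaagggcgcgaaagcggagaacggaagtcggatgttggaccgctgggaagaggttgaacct
MRPS25 (chr3:15065296-15065415, minus strand): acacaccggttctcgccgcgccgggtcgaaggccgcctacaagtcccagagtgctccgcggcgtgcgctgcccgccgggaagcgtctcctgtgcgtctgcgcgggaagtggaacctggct
MRPS16 (chr10:73252625-73252744, minus strand): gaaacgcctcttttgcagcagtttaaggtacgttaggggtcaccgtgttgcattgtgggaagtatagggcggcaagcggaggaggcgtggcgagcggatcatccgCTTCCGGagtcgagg

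The searched motifs, on both strands, were CCGGAAG of ETS factors such as GABPA, the NRF1 motif, AAGATGGCG of YY1 and the TATA box TATAAA, none of which contains another. In the printed stretches MRPS34 held 3 ETS matches, beginning 71, 29 and 19 bases before the start, and MRPL16 held 1 that spans the start. MRPS9 held an NRF1 match 40 bases before the start, and MRPS16 an ETS match from base 6 of the transcript. MRPL11, MRPL34, MRPL18 and MRPS25 held none of the 4 motifs in the window searched. That window ran from 250 bases before to 50 bases after the start, and RefSeq promoters were matched for 67 of the 75 members, all but MRPL2, MRPL10, MRPL13, MRPL15, MRPL23, MRPL35, MRPS28 and MRPS36. An ETS match was present in 29 of 67 (43.3%), against 17.6% of 12136 promoters of genes with an adjusted p and 10.7% of all 27305 promoters. Of promoters of cytosolic ribosomal proteins 33.3% held one, and of respiratory chain subunits 29.7%. YY1 matches were in 11 members (16.4%), against 3.53% of promoters of genes with an adjusted p and 1.85% of all, with 7.94% for cytosolic ribosomal proteins and 12.5% for respiratory chain subunits. NRF1 matches were in 8 members (11.9%), against 10.7% and 6.28% of the same sets, and TATA boxes in 2 members (2.99%), against 6.38% of promoters of genes with an adjusted p. Among members called lower in the authors' deposited table, 5 of 10 with a promoter held the ETS motif, and of those that rose 1 of 4. The median log2 fold change was -0.08 for members with an ETS match and -0.0006 for those without in the authors' deposited table, and this difference was not tested. A match is a description of letters and not of binding.

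The summed input counts of the m6A table gave a second reading of expression, from regions of the same genes. These counts share libraries with the study and may share them with the expression table, so they are no independent repeat. Centred on the median over genes, 40 members were higher and 35 lower after toosendanin, with a median of 0.01 on the log2 scale. All 16 called members had the same sign in both readings, as did 61 of the 75. Across the 75 members the log2 ratios of summed inputs and the log2 fold changes of the authors' deposited table had a Pearson r of 0.87 and a Spearman rho of 0.88. For all 11466 genes with at least 50 summed input counts Pearson's r was 0.86. Among the 16 called members the sizes lay furthest apart in MRPS25, MRPL35 and MRPL18. MRPS25 stood at 0.09 ± 0.04 by summed input (counting error only) and 0.39 ± 0.14 in the authors' deposited table, and MRPL18 at 0.18 ± 0.05 by summed input and 0.39 ± 0.12 in that table. MRPL35 stood at -0.21 ± 0.08 by summed input, against the decrease of 0.47 given above. MRPL34 and MRPL16 differed little between the readings, at 0.60 ± 0.08 and -0.62 ± 0.06 by summed input. Over all member regions the summed input was 95276 counts after toosendanin and 139089 in control.

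**Figure D2:**
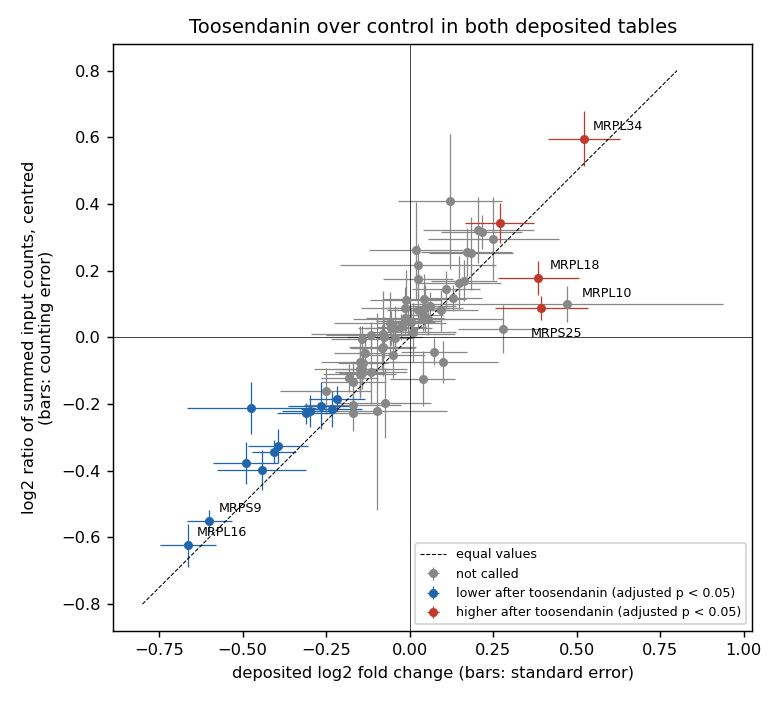
Each point is 1 of the 75 genes, with the log2 fold change (toosendanin over control) of the authors' deposited table and its standard error on the horizontal axis and the centred log2 ratio of summed input counts with its counting error on the vertical axis; the dashed line marks equal values. The 12 genes called lower lie at the lower left and the 4 called higher at the upper right, while MRPL10 and MRPS25 lie to the right of the line.

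Among members that did not pass, MRPL10, which anchors the stalk of the large subunit, had the widest error and stood at 0.47 ± 0.47 in the authors' deposited table, and its summed input counts of 1277 after toosendanin and 1677 in control gave 0.10 ± 0.05 after centring. Other standard errors of the members ran from 0.0575 for MRPL45 to 0.233 for MRPL14 in the authors' deposited table. MRPL42 stood at 0.28 ± 0.14, MRPL41 at 0.22 ± 0.12 and the small subunit protein MRPS18C at -0.25 ± 0.14 in the authors' deposited table. Of the 59 members not called, 57 had a 95% interval within a 1.5-fold change in either direction in the authors' deposited table, and the exceptions were MRPL10 and MRPS36. MRPS36 is now known as a component of the alpha-ketoglutarate dehydrogenase complex rather than of the ribosome, and it stood at 0.25 ± 0.20 in the authors' deposited table.

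Several other members did not pass either. MRPL12, the stalk protein that also binds the mitochondrial RNA polymerase, stood at -0.03 ± 0.07, MRPL45, which ties the ribosome to the inner membrane, at -0.04 ± 0.06 and MRPL58, a peptidyl-tRNA hydrolase that frees stalled ribosomes, at -0.08 ± 0.11 in the authors' deposited table. MRPS12, of the decoding site, stood at -0.10 ± 0.21 and MRPL1, of the other stalk of the large subunit, at -0.08 ± 0.21 in the authors' deposited table. These were among the members with the fewest counts, with mean normalized counts of 337.6 for MRPS12, 329.9 for MRPS36 and 291.9 for MRPL1 in the authors' deposited table. The highest mean normalized counts, which are not corrected for transcript length, were 4370 for MRPS26, 3814 for MRPS9, 3813 for MRPS5, 3630 for MRPL45 and 3583 for MRPS34 in the authors' deposited table. MRPS5, of the small subunit near the path of the mRNA, did not pass, with -0.17 ± 0.15 in the authors' deposited table. The 3 MRPS18 proteins are paralogues of 1 bacterial protein, of which MRPS18A lies in the large subunit. MRPS18A stood at -0.06 ± 0.08 and MRPS18B, which is not a member for want of an m6A region, at 0.05 ± 0.09 in the authors' deposited table.

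Split by place in the known structure, the authors' deposited table had 8 of 50 large subunit members lower and 2 higher, and 4 of 24 small subunit members lower and 2 higher. The medians were -0.04 for the large and -0.02 for the small subunit in the authors' deposited table. Bacterial homologues gave 8 lower and 3 higher of 43, and proteins particular to mitochondria 4 lower and 1 higher of 31, with medians of -0.04 in both classes of the authors' deposited table. Within the large subunit 9 of 29 bacterial homologues (31.0%) and 1 of 21 mitochondrial proteins (4.76%) were called in the authors' deposited table. Within the small subunit the order was the other way, with 2 of 14 (14.3%) and 4 of 10 (40.0%) called in the authors' deposited table. The share of bacterial homologues called in the large subunit, 31.0%, was near the 31.4% of all genes. All members lay in the upper 50% of means, where 43.4% of genes were called, and 31.0%, 4.76%, 14.3% and 40.0% were each under that. Lower members made up 16.0% of the large and 16.7% of the small subunit, against 21.9% of genes in that upper 50%. No test of the differences between classes was made.

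Genes that act with the mitochondrial ribosome also moved in both directions. Of 5 further ribosomal proteins with other names, PTCD3 and GADD45GIP1 fell by 0.25 ± 0.07 and 0.26 ± 0.08 in the authors' deposited table, while DAP3 and 2 others missed the threshold. Of 26 genes of ribosome assembly and rRNA modification 5 fell and 1 rose, with a median of -0.11 in the authors' deposited table. The rRNA methyltransferase MRM3 fell by 0.62 ± 0.13, the assembly helicase DHX30 by 0.30 ± 0.07 and the assembly factor RBFA by 0.42 ± 0.10 in the authors' deposited table. Among 15 measured translation factors and partners, the authors' deposited table had 4 higher and 2 lower. The initiation factor MTIF2 fell by 0.36 ± 0.06, whereas OXA1L, which inserts new proteins into the inner membrane, stood at 0.46 ± 0.09 and the translational activator TACO1 at 0.24 ± 0.08 in the authors' deposited table. Of 17 mitochondrial aminoacyl-tRNA synthetases 8 fell and 1 rose, with a median of -0.14 in the authors' deposited table. VARS2 fell by 0.69 ± 0.08 and AARS2 by 0.46 ± 0.10, while CARS2 stood at 0.34 ± 0.09 in the authors' deposited table. Of 6 genes of mitochondrial transcription the RNA polymerase POLRMT fell by 0.27 ± 0.09 in the authors' deposited table, and the other 5 missed the threshold.

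Of 9 nuclear regulators known to drive genes of mitochondrial proteins, 2 fell and 1 rose (33.3% called, against 31.4% of all tested genes). YY1 fell by 0.36 ± 0.06 and the coactivator PPRC1 by 0.47 ± 0.16, and the receptor ESRRA stood at 0.30 ± 0.10 in the authors' deposited table. NRF1 stood at -0.25 ± 0.19, GABPA at -0.19 ± 0.12, its partner GABPB1 at -0.38 ± 0.16, MYC at -0.12 ± 0.07, PPARGC1A at 0.16 ± 0.10 and PPARGC1B at 0.29 ± 0.16 in the authors' deposited table, and none of these 6 passed.

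The cytosolic ribosomal proteins and the nuclear subunits of the respiratory chain had other distributions. Of 78 cytosolic ribosomal protein genes with an adjusted p 61 passed, each of them higher after toosendanin, with a median of 0.29 over 80 genes in the authors' deposited table. The nuclear respiratory chain set was chosen by name and also took genes named for the ATP synthase. Of its 82 genes 26 passed, each of them higher, with a median of 0.15 in the authors' deposited table. That is 31.7%, against 31.4% of all tested genes called in either direction and 15.7% called higher. The mitochondrial ribosomal proteins, with 4 higher and 12 lower of 75, had a median of -0.04 in the authors' deposited table. The values of the 3 families come from 1 comparison and the differences between them were not tested.

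**Figure D3:**
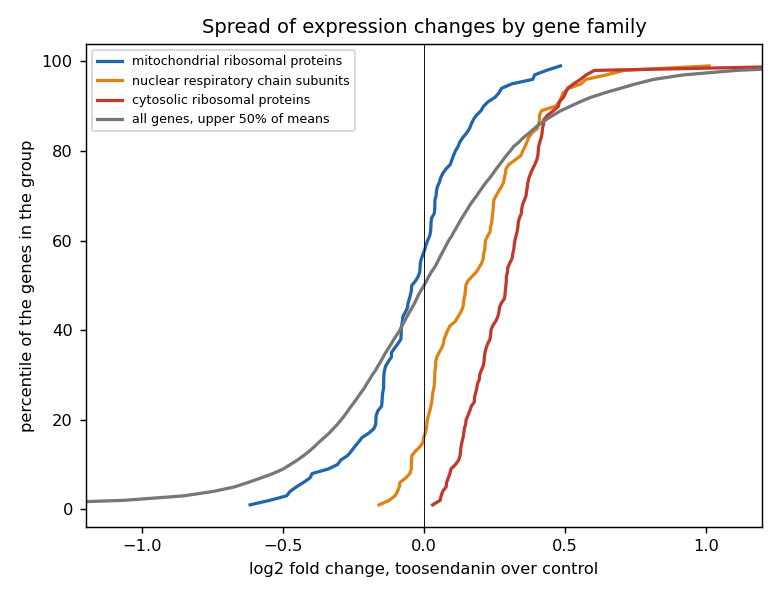
Percentile of the genes in each group (vertical axis) against log2 fold change, toosendanin over control, in the authors' deposited table (horizontal axis), for mitochondrial ribosomal proteins, nuclear respiratory chain subunits (with ATP synthase genes), cytosolic ribosomal proteins and all genes in the upper 50% of means. The curve of mitochondrial ribosomal proteins crosses the 50th percentile at -0.04, left of the respiratory chain at 0.15 and the cytosolic ribosomal proteins at 0.29, and is steeper than that of all genes.

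The m6A table held 174 regions of the 75 members. Of the members 23 had 1 region, 27 had 2, 15 had 3 and 10 had 4 to 7. Enrichment is given here as the log2 ratio of summed IP over summed input counts, each scaled to its total over all regions. With at least 50 counts in each sum, 41 of 140 member regions (29.3%) had a ratio above 1 in control, against 38.4% of all regions, and the median enrichment in control was -0.38, against -0.23. MRPL32 had the most enriched region of this kind, with a ratio of 2.40 after toosendanin and 2.70 in control. It was followed by regions of MRPL35 at 2.21 after toosendanin and 2.42 in control, of MRPL36 at 2.36 and 2.12, of MRPS30 at 1.59 and 2.06, and of MRPS11 at 2.04 and 1.99. The region of MRPL32, with summed IP counts of 3752 after toosendanin and 6009 in control, lay at percentile 96.6 in control enrichment. That percentile is over all regions, also those with fewer counts. With at least 50 counts in each sum, 2.86% of member regions and 4.73% of all regions had a control ratio above 2.

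Of 139 member regions with a false discovery rate (FDR) in the authors' deposited table, 12 were called at under 0.05, 4 with a higher and 8 with a lower IP over input ratio after toosendanin. That is 8.63%, read against 8.95% of all regions with an FDR in the authors' deposited table (2.71% higher and 6.24% lower). No member had more than 1 called region. At an FDR under 0.01 the authors' deposited table called 5 member regions, against 4.98% of all regions with an FDR. With at least 50 counts in each sum it called 12 (9.16%, against 9.55%). With a control ratio above 1 it called 5 (12.2%, against 10.4%). The median m6A log2 fold change was -0.02 over member regions and -0.06 over all regions in the authors' deposited table. The p-values of the authors' deposited m6A table hold counting error of summed counts only, and no spread between libraries. When the statistic was widened by its own spread over regions with an FDR, 1 of the 12 remained, that of MRPS26. Of all such regions 1.71% were then called. The split also turned with the scaling, in an alternative chosen after the data were seen. From summed counts centred on all regions, 8 member regions were higher and 3 lower. Among all regions with an FDR this called 8.48% (5.29% higher and 3.19% lower). Of the 12 called as deposited 7 were called there too, 4 higher and 3 lower.

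MRPS26 had the lowest FDR, with summed IP and input counts of 4424 and 3437 after toosendanin and 8007 and 5665 in control. Its m6A log2 fold change was -0.23 ± 0.04 in the authors' deposited table (FDR = 1.9e-06) and -0.12 after centring of the summed counts, so the scaling moved it by over 1.5 times. MRPL32 fell by 0.22 ± 0.06, MRPL18 by 0.29 ± 0.08 and MRPL14 by 0.33 ± 0.09 in m6A log2 fold change in the authors' deposited table, where ± is counting error. The authors' deposited table gave MRPL51 -0.19 ± 0.06, MRPL27 -0.37 ± 0.12, MRPL34 -0.31 ± 0.11 and MRPL57 -0.65 ± 0.22. With centring, 5 of these regions were no longer called but kept their sign: MRPL57 stood at -0.61 (FDR 0.0672), MRPL14 at -0.25 (FDR 0.0709), MRPL27 at -0.28 (FDR 0.140), MRPL51 at -0.13 (FDR 0.168) and MRPL34 at -0.21 (FDR 0.216).

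The 4 higher regions kept their call under centring. The deposited m6A log2 fold change minus that of the summed counts ran from -0.0953 to -0.0037 over member regions. The median subtracted in centring was -0.0158, so every member region moved up. Higher regions could only move away from 0, and keeping their call says little about how firm it is. MRPL52 had summed IP and input counts of 1497 and 1350 after toosendanin and 1789 and 2015 in control, for an m6A log2 fold change of 0.28 ± 0.07 in the authors' deposited table (FDR = 0.0022). MRPS23 stood at 0.18 ± 0.06, a region of MRPL48 at 0.54 ± 0.17 and a region of MRPS5 at 0.32 ± 0.10 in the authors' deposited table. All 4 had more input than IP in control on the scale of totals: the ratios were 0.924 after toosendanin and 0.716 in control for MRPL52, 0.780 and 0.644 for MRPS23, 0.680 and 0.444 for MRPL48, and 0.445 and 0.328 for MRPS5.

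**Figure D4:**
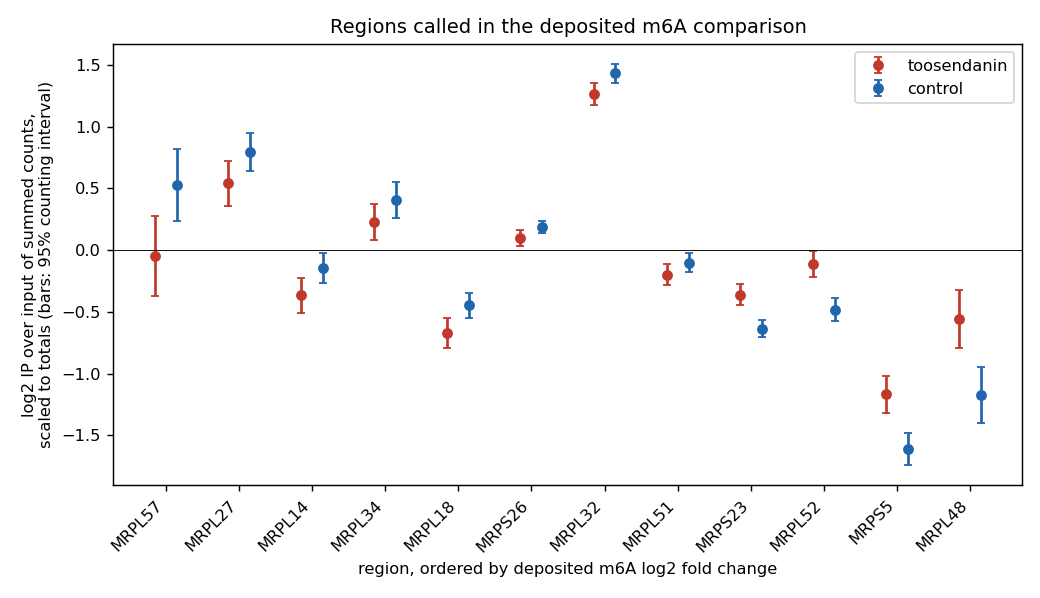
Log2 IP over input of summed counts, scaled to totals (vertical axis, with 95% counting intervals), after toosendanin (red) and in control (blue) for the 12 regions called in the authors' deposited m6A table, ordered by their m6A log2 fold change. The 4 regions at the right, of MRPS23, MRPL52, MRPS5 and MRPL48, are higher after toosendanin and lie under 0 in both groups.

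Called regions that were lower had more IP over input in control than those that were higher, among members as among all regions. Of the 8 lower regions 5 had a control ratio above 1, and of the 4 higher regions 0 did, where all called regions gave 66.8% of 1540 lower and 5.98% of 669 higher in the authors' deposited table. Over 140 member regions with at least 50 counts in each sum, control enrichment and m6A log2 fold change of the authors' deposited table had a Pearson r of -0.35 and a Spearman rho of -0.31. Over 28046 regions of all genes these were -0.38 and -0.39. Both measures contain the same control counts, and no p is given.

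**Figure D5:**
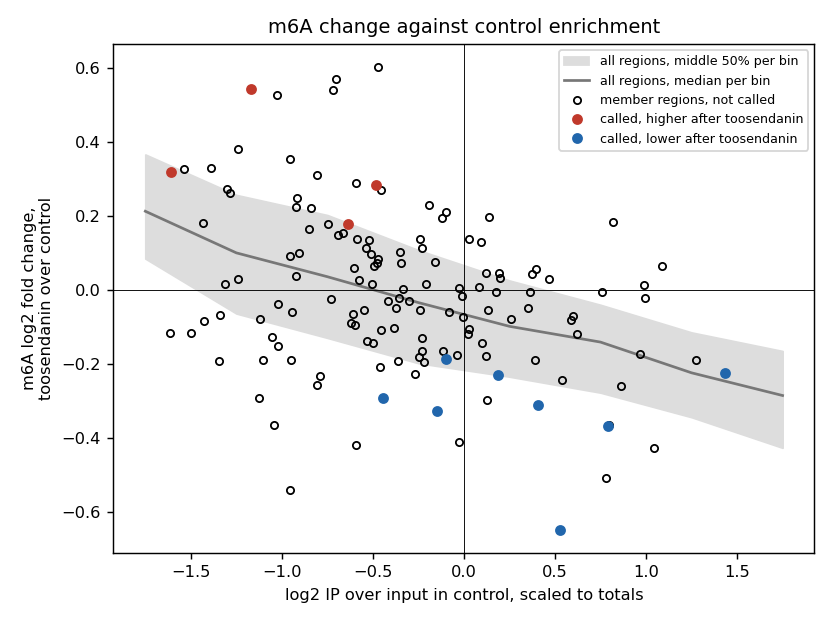
M6A log2 fold change (toosendanin over control) of the authors' deposited table against log2 IP over input in control for the 140 member regions with at least 50 counts in each sum; the grey line and band give the median and middle 50% of all regions per bin of control enrichment. The 4 called higher regions lie at the left and 5 of the 8 called lower ones right of 0, along the slope of all regions.

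Of 52 members with several regions 30 (57.7%) had m6A log2 fold changes of both signs in the authors' deposited table, as did 72.2% of 10046 such genes in all. Regions without an FDR or with few counts are included. The shares are not matched for the number of regions per gene, which was 174 regions over 75 members and 46178 over 12985 gene labels in all. The regions of MRPL27, MRPS5 and MRPL18 serve as examples, chosen after their values were seen. In none of these genes was a region of the opposite sign called as deposited. In MRPL27 the called region stood at -0.37 ± 0.12 while the other stood at 0.38 ± 0.15 in the authors' deposited table (FDR of the authors' deposited table = 0.106), with control ratios of 1.73 and 0.423. With centring the call passed from the former, at -0.28 (FDR 0.140), to the latter, at 0.46 (FDR 0.0403). In MRPS5 the called region stood at 0.32 ± 0.10 and the main region at -0.08 ± 0.04 (FDR = 0.146) in the authors' deposited table. That main region was the most deeply counted of any member, with summed IP counts of 7047 after toosendanin and 11985 in control. In MRPL18 the main region stood at -0.29 ± 0.08 and the 2 lesser ones at 0.54 ± 0.30 (FDR = 0.2765) and 0.57 ± 0.32 (FDR = 0.2796) in the authors' deposited table. Where the regions lie within a transcript is not in the files, so they could not be tied to an exon or to a sequence motif.

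Expression and m6A calls met in 4 of the 75 members (5.33%) and in 872 of 12337 genes with both measures (7.07%) in the authors' deposited tables. Of the members, 12 were called in expression alone, 8 in m6A alone and 51 in neither in the authors' deposited tables. With or without the other call, 16 of the 75 members (21.3%) were called in expression, against 4673 of the 12337 genes (37.9%). For m6A these were 12 of the 75 and 1731 of the 12337. Of members called in expression 4 of 16 were also called in m6A, against 18.7% of such genes. Of members called in m6A 33.3% were also called in expression, against 50.4% of such genes. MRPL34 and MRPL18 were higher in expression with a lower IP over input ratio, MRPS23 was lower in expression with a higher ratio, and MRPS26 was lower in both. The ratio is divided by input counts, which may share libraries with the expression table. Expression and m6A signs are therefore not independent of each other, and no relation between them was tested. MRPS9, which was lower in expression, had an m6A log2 fold change of 0.04 ± 0.04 in the authors' deposited table. Its IP over input ratio was 1.40 after toosendanin and 1.29 in control, with summed IP counts of 4557 after toosendanin and 9010 in control.

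Of markers of hepatocytes 10 of 10 were counted, with mean normalized counts from 5546 to 411979 in the authors' deposited table. Of 24 markers of fibroblasts, endothelium and blood, 11 were at a mean of 0 in the authors' deposited table, with PTPRC, COL1A1 and KDR among those at 0. Markers of blood cells with counts included LYZ and CD68. LYZ fell by 0.37 ± 0.06 and CD68, also known as a lysosomal protein, stood at 1.41 ± 0.09 in the authors' deposited table. Whether other cells had a part in the results was not tested.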

How the data were processed

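The members and gene lists were chosen with earlier results of these data known. Expression values come from a table the authors deposited, whose columns, per the file headers, match DESeq2 output: mean signal (normalized counts), log2 fold change and its standard error, Wald score, p-value and adjusted p. The submitters' processing notes name DESeq, StringTie and HISAT2. The sources used here do not give the build, annotation, strand setting or which libraries were compared. The kit adds molecular identifiers per the labels' protocols, but whether counts were collapsed by them is also unknown. The m6A table holds, per the file headers, whole-number counts per region that the authors summed over the libraries of a condition, with a log2 fold change, p-value and FDR from a tool the sources used here do not name. Totals over 46178 regions were 29094328 for toosendanin IP, 24253006 for toosendanin input, 42316089 for control IP and 34131862 for control input.

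Calls were taken at a deposited adjusted p or FDR under 0.05, and 24688 regions have an FDR. Labels do not say whether libraries came from separate cultures, so p-values may measure technical spread. The deposited m6A p-value matched Poisson error of the summed counts within 1% in 99.5% of regions, so its intervals cover counting error only. Summed inputs used a pseudocount of 1. Named genes followed a rule: called members, those with the highest and lowest means, the largest changes not called, paralogues and well-known members, called, most enriched and most counted regions, up to 3 genes per list and all regulators. Other genes were named after their values were seen. Promoters were taken from RefSeq. The ratio test and its adjustment were tested on simulated counts with Poisson error only. Those counts hold no spread between libraries, so they cannot show how the test behaves under such spread. Python 3.11.15, numpy 2.4.6, pandas 2.3.3, scipy 1.17.1 and matplotlib 3.10.9 were used.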

Additional observations from a re-analysis of the deposited data

How the results depend on the processing

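The count of 16 expression calls among members was within 1.5 times of itself under an adjustment over all p-values (15), in the upper 50% of means (16) and with ribosomal proteins of other names (18). Of all genes 26.6% were called under the adjustment over all p-values and 43.4% in the upper 50% of means. At an adjusted p under 0.01 the count was 10, 2 higher and 8 lower, against 23.8% of all tested genes. With at least a 2-fold change it was 0, against 7.29%. The median expression change ran from -0.05 to 0.01 over its alternatives and changed sign when summed inputs were used. Counts of members higher by summed input were 40 under each of 2 other settings. The 12 m6A calls were 12 in regions of 1 gene and with at least 50 counts in each sum, and 5 at an FDR under 0.01. With at least a 1.5-fold change 1 was left, against 1.47% of all regions with an FDR. There were 5 among regions with a control ratio above 1 and 1 with the widened statistic. Centred summed counts gave 11, an alternative chosen after the data were seen that turned the split to 8 higher and 3 lower. No paired analysis was possible because the files give no values per library, and leaving out single replicates was not run for the same reason. The median m6A change was -0.02 as deposited and 0.04 with centred summed counts. Of 174 member regions, 35 carry a fold change without an FDR, and why was not tested.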

Other observations

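Some transcripts named after members are listed apart from them in the authors' deposited table. The pseudogene MRPS31P5 stood at -0.49 ± 0.18 (adjusted DESeq2 p = 0.0279 in the authors' deposited table) at a mean normalized count of 383.2, while MRPS31 itself stood at -0.15 ± 0.11. MRPL45P2 stood at 0.20 ± 0.33 and MRPL42P5 at -0.46 ± 0.81 in the authors' deposited table. How reads were divided between these copies and MRPS31, MRPL45 and MRPL42 is unknown, so those values are uncertain. MRPL23-AS1, named as antisense to MRPL23, fell by 0.76 ± 0.30 at a mean of 103.6, and MRPL20-AS1 stood at 0.18 ± 0.12 in the authors' deposited table, against 0.02 ± 0.11 for MRPL23 and 0.03 ± 0.09 for MRPL20. The library kit is stranded per the labels' protocols, but the strand setting of the counting is unknown, so reads of a gene and its antisense partner cannot be told apart. The region whose label MRPS24 shares with other genes had summed IP and input counts of 447 and 496 with toosendanin and 578 and 710 in control, with an m6A log2 fold change of 0.05 in the authors' deposited table.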
